A study of Mus musculus with 4 samples.

Results

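The genes described here are those of the kinetochore, the spindle checkpoint and the anaphase-promoting complex. A gene was taken if its symbol was Cenp followed by a single letter or Anapc followed by a number, or if it was among 25 further symbols of the same machinery. The rule found 55 genes among the 50763 in the table, and all 55 had counts in every library, with 54 reads as the lowest value. The libraries were made from poly(A) RNA of mouse pachytene spermatocytes, purified from the testis, with 2 for the wild-type (WT) genotype and 2 for the genotype labelled Hsf5 knockdown. Hsf5 encodes a heat shock factor of the male germ line. The sources used here do not give the strain, the age, how the knockdown was made or which animals were used. The sample titles call the libraries of each group biological replicates. Adjusted p-values below test the difference between the groups against the spread between these libraries, which may be technical in part. The study's design names gene expression at the pachytene stage as the question of the comparison.

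Kinetochores are protein assemblies built on centromeric chromatin, where spindle microtubules attach. The spindle checkpoint reads unattached kinetochores and holds back the anaphase-promoting complex (APC/C), a ubiquitin ligase whose release lets separase cut cohesin and the cell divide. Spermatocytes pass through a long pachytene stage with paired chromosomes before they build these spindles. Parts with roles in meiosis include Aurkc, Sgo2a, Meikin and Fbxo43. Spermatogonia come before meiosis and divide by mitosis.

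The libraries held 33287428 to 42479164 counts. Levels are given in CPM, read counts divided by the scaled size of the library, with TMM factors, which correct for differences in composition between libraries. The targeted gene Hsf5 stood at 586 and 449 CPM in WT and at 287 and 238 CPM in the knockdown (log2 fold change -0.98, SE 0.31; edgeR, adjusted p = 0.0217). Library totals as the only scaling ended that call (-0.55; edgeR, adjusted p = 0.116), as did glmTreat against a fold of 1.5 (adjusted p = 0.0772). Removal of WT replicate 1 (-0.79) or of WT replicate 2 (-1.13) ended it too. Marker lists of other stages and cell types differed between the groups as well. Of all genes tested, 27.4% were called higher in the knockdown and 33.5% lower, at an adjusted p of 0.05. All 10 mid and late pachytene markers and all 10 spermatid markers were lower in the knockdown, their summed levels going from 13583 to 13635 CPM down to 1813 to 2241 CPM and from 2038 to 4082 CPM down to 15.5 to 23.2 CPM. In the knockdown 6 of 10 leptotene and zygotene markers were higher and 1 was lower, and 9 of 12 spermatogonial markers were higher (174 to 183 CPM summed in WT, 782 to 830 CPM in the knockdown). All 12 Sertoli cell markers (164 to 405 CPM against 3495 to 4199 CPM), all 7 Leydig cell markers (116 to 792 CPM against 1407 to 2858 CPM) and 6 of 7 immune markers (12.4 to 20.3 CPM against 105 to 166 CPM) were higher too. Peritubular markers summed to 3.78 and 6.32 CPM in WT and 96.3 and 23.3 CPM in the knockdown, and endothelial markers to 10.4 and 17.9 CPM against 17.8 and 44.2 CPM. Among the stage and cell type markers, only Prm2 and Smcp, both of spermatids, had no count in a group, the knockdown. In such samples a change in the number of cells of a kind and a change in RNA per cell cannot be told apart, and the part of these cells in the results below was not tested.

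Of the 55 genes, 11 were higher in the knockdown, 19 were lower and 25 did not pass an adjusted p of 0.05 over all 23594 genes tested. The shares, 20.0% and 34.5%, stand beside 27.4% of all genes called higher and 33.5% called lower, and the 30 calls in all beside 60.9%, so the group was called about as often as the transcriptome. In 16 of the 55 genes both knockdown libraries lay above both WT libraries (39% of all genes tested), and in 28 both lay below (43.7%). Its median log2 fold change was -0.39, against -0.12 for all genes tested. With library totals as the only scaling, which moved the median of all genes to 0.31, the split was 17 higher and 13 lower and the median of the 55 genes was 0.04. Without WT replicate 2 the higher calls numbered 7. Tested against a fold of 1.5 with glmTreat, 9 were higher and 13 lower, and Ndc80, Aurkb, Sgo2a, Espl1, Meikin, Bub1, Anapc7 and Anapc11 were no longer called. No called gene changed its direction under any alternative run, and 18 of the 30 calls, 6 higher and 12 lower, held under each of them. These 18 are Cenpa, Cenpb, Cenpm, Sgo1, Anapc4 and Anapc5 among the higher genes, and Cenpn, Cenpo, Cenpu, Cenpv, Ttk, Aurka, Aurkc, Plk1, Birc5, Pttg1, Fzr1 and Fbxo43 among the lower. The parts of the machinery differed from each other in direction, and they are taken in turn.

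**Figure D1:**
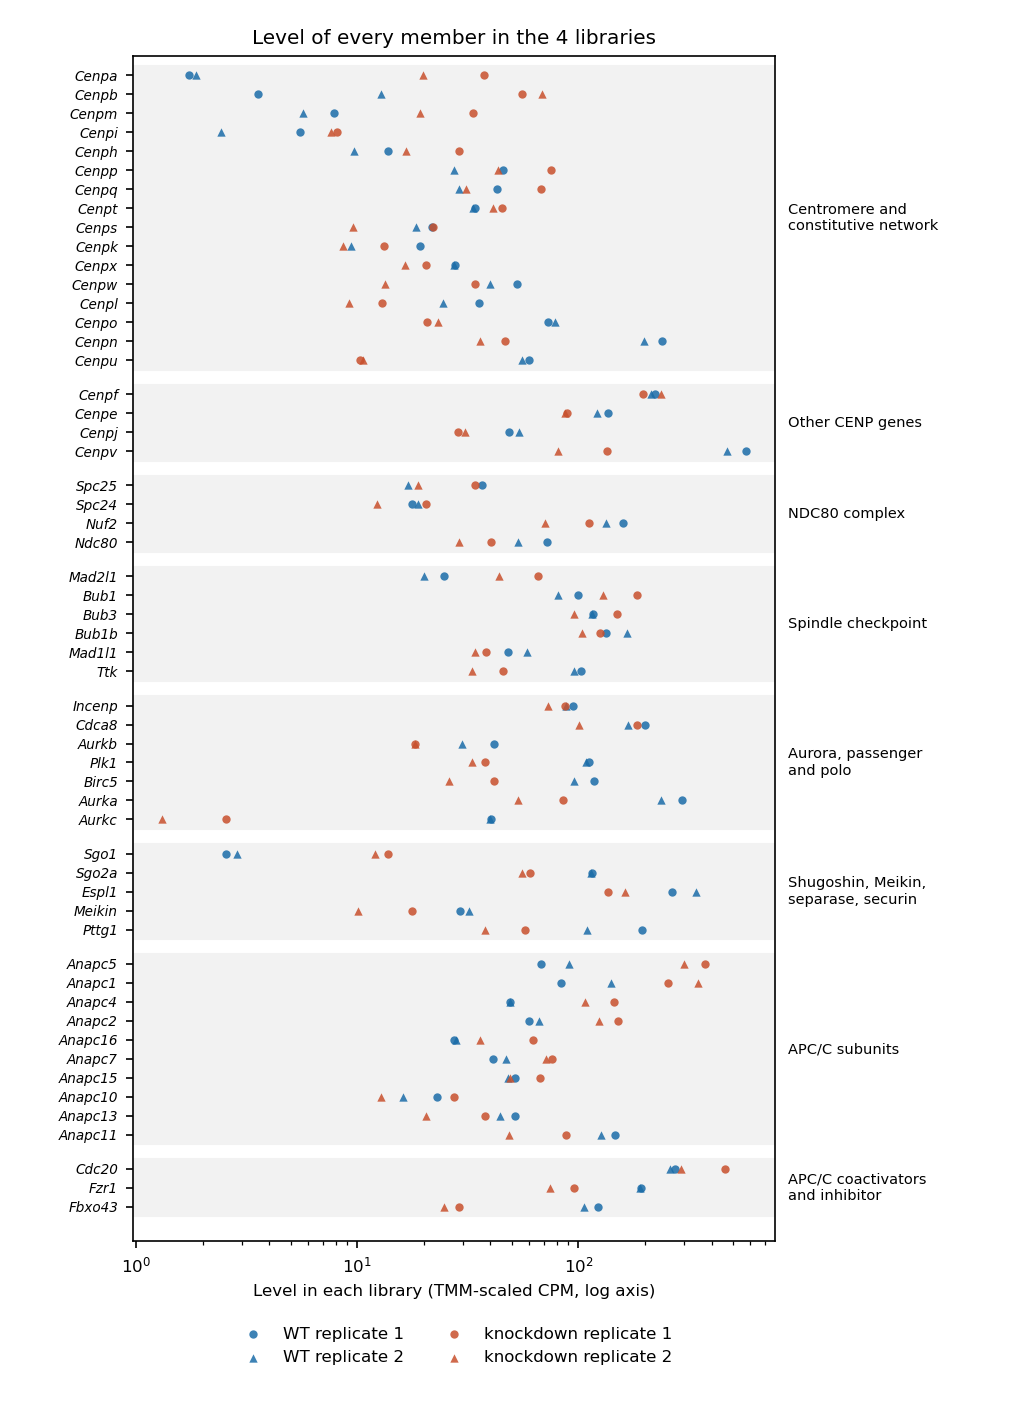
Level of each of the 55 genes in the 4 libraries, in TMM-scaled CPM on a log axis, grouped by role; circles are replicate 1 and triangles replicate 2 of WT (blue) and the Hsf5 knockdown (orange). Cenpa and Sgo1 lie at the low end in WT and far higher in both knockdown libraries, and Aurkc shows the reverse, from 40.2 and 39.7 CPM to 2.56 and 1.31 CPM.

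At the centromere 3 of 16 genes rose and 4 fell, while 9 gave no call, beside 27.4% of all genes tested called higher and 33.5% lower. The largest rise of all 55 genes was that of Cenpa. Its product is the histone H3 variant that marks centromeric nucleosomes. Cenpa was read at 1.73 and 1.88 CPM in WT and at 37.3 and 19.8 CPM in the knockdown, a 15.8-fold rise (log2 fold change 3.99, SE 0.49; edgeR, adjusted p = 0.000182). The lower knockdown library was still far above both WT libraries. Cenpb, which binds a motif in centromeric satellite DNA, went from 3.54 and 12.8 CPM to 55.7 and 68.3 CPM (2.93, SE 0.56; edgeR, adjusted p = 0.00174). Cenpm, of the inner network that assembles on Cenpa chromatin, went from 7.89 and 5.69 CPM to 33.5 and 19.3 CPM (1.96, SE 0.44; edgeR, adjusted p = 0.00396). The WT libraries were thus low for all 3, although they differed widely from each other for Cenpb. The exons of Cenpb overlap those of Spef1 on the same strand in the GENCODE M21 annotation. Spef1 itself fell (log2 fold change -1.88, adjusted p = 0.00104).

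The 4 centromere genes that fell belong to the same inner network. Cenpn, whose product contacts the Cenpa nucleosome, went from 239 and 198 CPM to 46.4 and 35.9 CPM (log2 fold change -2.41, SE 0.31; edgeR, adjusted p = 0.000227). Cenpl, its binding partner, went from 35.6 and 24.4 CPM to 12.97 and 9.2 CPM (-1.44, SE 0.40; edgeR, adjusted p = 0.0111). In both cases the groups did not overlap, as in most genes tested. Cenpu went from 59.6 and 55.6 CPM to 10.3 and 10.6 CPM (-2.46, SE 0.33; edgeR, adjusted p = 0.000296). Cenpo went from 72.7 and 78.3 CPM to 20.7 and 23.2 CPM (-1.78, SE 0.31; edgeR, adjusted p = 0.00106). These last 2 encode members of a single subcomplex of the network, and their replicates lay close together. For another 2 members of it no change was called. Cenpp stood at 45.5 and 27.5 CPM in WT and 75.1 and 43.4 CPM in the knockdown, and Cenpq at 42.7 and 28.8 CPM against 67.5 and 31.1 CPM, with overlapping groups in both. Removing WT replicate 1 (adjusted p = 0.0557) or knockdown replicate 2 (0.0681) ended the call of Cenpl.

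The remaining 7 centromere genes did not pass either. Cenph (log2 fold change 0.95), Cenpi (0.98) and Cenpt (0.35) had both knockdown libraries above both WT libraries. Cenpi is the only X-linked gene of the 55. Cenpw (-0.96) and Cenpx (-0.57) had both knockdown libraries below, and Cenps (-0.35) and Cenpk (-0.40) overlapped between groups. With library totals only, Cenph, Cenpi, Cenpp and Cenpt passed as higher (adjusted p from 0.0184 to 0.0461), and Cenpi did so on removal of WT replicate 1 as well (0.0312), and Cenpp on removal of knockdown replicate 2 (0.042). Cenpw passed as lower when WT replicate 2 (0.045) or knockdown replicate 1 (0.0114) was removed.

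The promoter of Cenpa is shown because the gene rose most, and because it carries the letters common in genes of cell division. RefSeq windows of 300 bases, 250 before and 50 after a transcript's start on GRCm38.p6, were at hand for 50 of the 55 genes. Capitals mark matches on either strand to TTTGAA (the cell cycle homology region, CHR), CCAAT, TGACGTCA, GAANNTTC (the inverted pair of units in heat shock elements) and TTTCCCGC (an E2F site). The Cenpa window, on the plus strand at chr5:30666636-30666935, has the CHR letters and a pair of CCAAT boxes read from the opposite strand.
Cenpa: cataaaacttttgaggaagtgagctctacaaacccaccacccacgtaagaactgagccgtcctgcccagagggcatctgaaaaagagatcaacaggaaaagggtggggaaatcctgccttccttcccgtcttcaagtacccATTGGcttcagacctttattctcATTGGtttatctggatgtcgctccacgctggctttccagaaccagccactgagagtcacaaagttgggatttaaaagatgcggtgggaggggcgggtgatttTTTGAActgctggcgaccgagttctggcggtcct
TTTGAA was in a window of 34.0% of the genes with one, against 20.2% of all genes in the promoter table, and CCAAT in 60.0% against 41.1%. TTTCCCGC was in 5 of the 50 genes, against 1.24% of all genes, TGACGTCA in 4 of the 50 against 2.03%, and GAANNTTC in 4 of the 50 against 9.04%. Matches of different motifs overlapped in 3 of the 59 windows. Among the genes that fell, 7 of 16 with a window had TTTGAA, and among those that rose 2 of 11 had it. Of the genes not past the test, 8 of 23 had it. GAANNTTC was in 2 of the genes that fell, 1 of those that rose and 1 of those not past the test. These are matches of letters, not measured binding.

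Of the other CENP genes only Cenpv passed. Cenpv, linked to placing the chromosomal passenger complex at centromeres, was the most abundant of the 55 genes per kilobase of transcript in WT. It went from 573 and 469 CPM to 135 and 80.7 CPM (log2 fold change -2.27, SE 0.35; edgeR, adjusted p = 0.000632). The kinesin gene Cenpe (136 and 121 CPM against 88.4 and 87.1 CPM) and the centriole gene Cenpj (48.4 and 54.0 CPM against 28.5 and 30.9 CPM) had both knockdown libraries lower. Neither passed (edgeR, adjusted p = 0.112 and 0.0503). Cenpj did pass as lower with DESeq2 size factors (0.0388), in the DESeq2 Wald test (0.0277) and under the stricter filter of 1 CPM on average (0.0374). Cenpf, a large protein of the outer kinetochore, stood at 221 and 213 CPM against 196 and 236 CPM, and its interval of 1 SE, -0.01 ± 0.29 on the log2 scale, lay around 0.

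Of the NDC80 complex, whose 4 proteins hold the microtubule end, only Ndc80 itself passed. It went from 72.03 and 53.1 CPM to 40.1 and 28.8 CPM (log2 fold change -0.86, SE 0.33; edgeR, adjusted p = 0.0474). That call lay at the threshold and ended on removal of any of the libraries (adjusted p from 0.054 for knockdown replicate 1 to 0.292 for WT replicate 1) with totals as the scaling (0.256) and without the low-count filter (0.0722). Nuf2 stood at 159 and 134 CPM in WT and 111 and 70.3 CPM in the knockdown (edgeR, adjusted p = 0.0874) and passed as lower without knockdown replicate 1 (0.0272). Spc24 and Spc25 overlapped between groups, at log2 fold changes of -0.16 and -0.02, with SEs of 0.40 and 0.46.

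The spindle checkpoint genes were divided. Mad2l1, part of the inhibitor that binds Cdc20, went from 24.8 and 20.0 CPM to 66.0 and 43.8 CPM (log2 fold change 1.30, SE 0.35; edgeR, adjusted p = 0.01). Bub1, the kinase that marks centromeric chromatin for shugoshin, went from 99.6 and 80.9 CPM to 185 and 130 CPM (0.80, SE 0.31; edgeR, adjusted p = 0.0458). Ttk, the kinase that starts the checkpoint signal, moved the other way, from 102 and 95.1 CPM to 45.5 and 33.1 CPM (-1.33, SE 0.30; edgeR, adjusted p = 0.0044). None of the 3 had overlapping groups. Of all genes tested, 39% had both knockdown libraries above both WT libraries and 43.7% had both below. The remaining checkpoint genes did not pass: Bub3 (0.08, SE 0.31), Bub1b (-0.39, SE 0.29) and Mad1l1 (-0.56, SE 0.31). The call of Mad2l1 ended when WT replicate 2 (adjusted p = 0.0529) or knockdown replicate 1 (0.065) was removed. That of Bub1 ended on removal of WT replicate 1 (0.147), WT replicate 2 (0.295) or knockdown replicate 1 (0.135), with DESeq2 size factors (0.0522), in the DESeq2 Wald test (0.0674) and under the filter of 1 CPM on average (0.0559).

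Of the Aurora kinases, the passenger complex and Plk1, 5 of 7 genes fell and none rose. Among all genes tested 33.5% were called lower and 27.4% higher. Aurkc, the Aurora kinase of germ cells, showed the largest fall of the 55 genes. It was read at 40.2 and 39.7 CPM in WT and at 2.56 and 1.31 CPM in the knockdown, 20.6-fold lower (log2 fold change -4.36, SE 0.47; edgeR, adjusted p = 9.05e-05). Aurka, which acts at spindle poles, went from 293 and 236 CPM to 85.2 and 53.3 CPM (-1.93, SE 0.33; edgeR, adjusted p = 0.00108). Plk1, the polo-like kinase of meiotic and mitotic entry, went from 111 and 108 CPM to 37.8 and 33.1 CPM (-1.63, SE 0.29; edgeR, adjusted p = 0.00116). In each of these genes the higher knockdown library was below the lower WT library by a wide margin. Birc5, the survivin subunit of the passenger complex, went from 118 and 95.8 CPM to 41.6 and 26.0 CPM (-1.66, SE 0.33; edgeR, adjusted p = 0.0023). Aurkb, the somatic kinase of that complex, went from 41.6 and 29.7 CPM to 18.2 and 18.2 CPM (-0.97, SE 0.35; edgeR, adjusted p = 0.0371). Its call ended with library totals as the scaling (adjusted p = 0.206), with synaptonemal and cohesin scaling (0.069), without the low-count filter (0.0665) and on removal of WT replicate 1 (0.241), knockdown replicate 1 (0.14) or knockdown replicate 2 (0.106). The scaffold gene Incenp (95.0 and 87.8 CPM against 86.7 and 73.1 CPM) and the borealin gene Cdca8 (199 and 168 CPM against 184 and 101 CPM) did not pass, and both had a log2 fold change above 0 with library totals only (0.24 and 0.05). Mid and late pachytene markers were lower in the same libraries, as given above.

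The promoters of Aurka, Plk1 and Aurkc are printed side by side, since these kinases fell together. Aurka (minus strand, chr2:172370521-172370820) and Plk1 (plus strand, chr7:122159185-122159484) have a CCAAT box or boxes followed by TTTGAA near the start, whereas Aurkc (plus strand, chr7:6995135-6995434) has CCAAT letters, read from the opposite strand, and no TTTGAA. Capitals have the meaning given for Cenpa, whose window has both motifs although that gene rose. The window of Birc5, which fell too, had neither TTTGAA nor CCAAT and had a match to GAANNTTC.
Aurka: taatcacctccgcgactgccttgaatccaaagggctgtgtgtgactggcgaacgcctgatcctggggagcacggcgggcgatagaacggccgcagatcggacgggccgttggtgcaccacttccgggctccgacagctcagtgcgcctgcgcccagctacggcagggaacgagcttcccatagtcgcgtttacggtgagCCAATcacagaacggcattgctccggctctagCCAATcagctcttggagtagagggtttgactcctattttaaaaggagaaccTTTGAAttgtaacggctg
Plk1: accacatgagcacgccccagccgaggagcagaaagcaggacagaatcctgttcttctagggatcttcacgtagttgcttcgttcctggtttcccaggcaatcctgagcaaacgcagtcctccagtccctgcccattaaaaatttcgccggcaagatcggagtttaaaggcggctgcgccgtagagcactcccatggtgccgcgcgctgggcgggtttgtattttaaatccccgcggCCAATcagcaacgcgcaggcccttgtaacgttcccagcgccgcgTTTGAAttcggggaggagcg
Aurkc: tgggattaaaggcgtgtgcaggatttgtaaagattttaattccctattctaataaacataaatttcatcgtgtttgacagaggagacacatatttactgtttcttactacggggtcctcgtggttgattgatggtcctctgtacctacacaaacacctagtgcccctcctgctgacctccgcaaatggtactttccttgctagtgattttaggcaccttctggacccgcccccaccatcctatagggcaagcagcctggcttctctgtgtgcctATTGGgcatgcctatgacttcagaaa

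Within a library the make-up of a gene family does not depend on the scaling. Per kilobase of transcript, Aurkc made up 16.6% and 19.8% of the summed Aurora level in WT and 3.94% and 2.95% in the knockdown. Aurkb made up 10.2% and 8.76% in WT and 16.6% and 24.2% in the knockdown, and Aurka between 71.5% and 79.5% in all 4 libraries. Per kilobase, the germ-cell kinase was thus above the somatic Aurkb in both WT libraries and below it in both knockdown libraries. Without division by transcript length, Aurkc was the lower of the pair in WT replicate 1 (40.2 against 41.6 CPM).

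**Figure D2:**
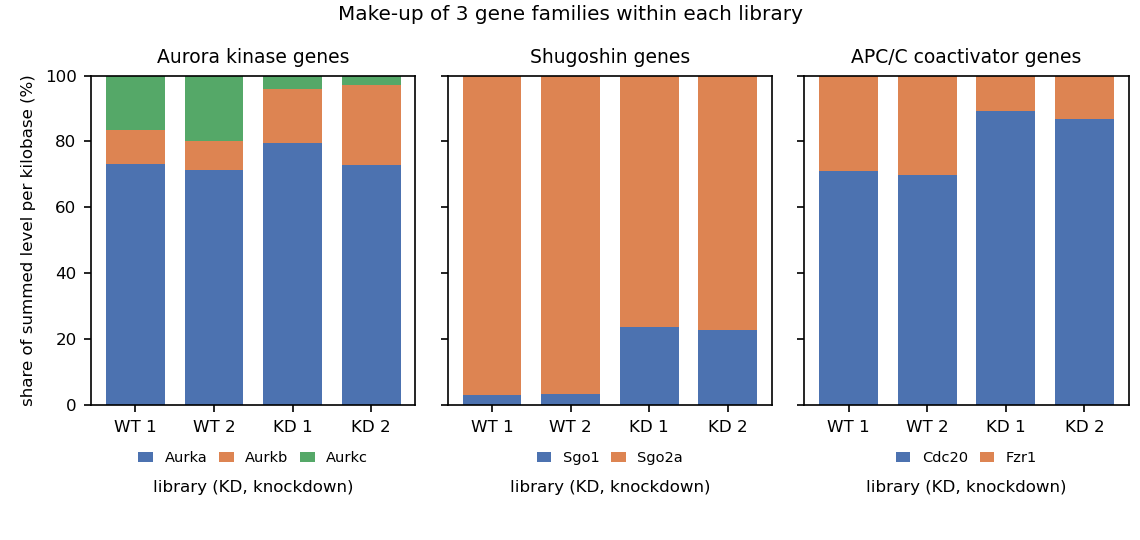
Share of each gene in the summed level per kilobase of 3 gene families, in each library (WT, wild type; KD, Hsf5 knockdown). The Aurkc share is 16.6% and 19.8% in WT and 3.94% and 2.95% in the knockdown, the Sgo1 share is 2.94% and 3.29% against 23.7% and 22.8%, and the Cdc20 share 71.0% and 69.9% against 89.1% and 86.9%.

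All 5 genes of cohesin protection and cleavage passed, 4 of them lower, beside 33.5% of all genes tested called lower and 27.4% higher. Pttg1, the securin that restrains separase, went from 194 and 109 CPM to 57.3 and 37.8 CPM (log2 fold change -1.67, SE 0.37; edgeR, adjusted p = 0.00375). Espl1, separase itself, went from 265 and 342 CPM to 137 and 163 CPM (-1.02, SE 0.30; edgeR, adjusted p = 0.0155). Enzyme and inhibitor were therefore both lower. Sgo2a, which shields centromeric cohesin in meiosis I, went from 115 and 114 CPM to 60.2 and 55.6 CPM (-0.98, SE 0.28; edgeR, adjusted p = 0.0126). Meikin, a meiosis-specific kinetochore protein that lets sister kinetochores face the same pole, went from 29.2 and 32.1 CPM to 17.6 and 10.1 CPM (-1.14, SE 0.40; edgeR, adjusted p = 0.0308). Sgo1, the shugoshin of mitosis, was the exception and rose from 2.56 and 2.85 CPM to 13.7 and 12.1 CPM (2.25, SE 0.46; edgeR, adjusted p = 0.00239). Sgo1 made up 2.94% and 3.29% of the summed shugoshin level per kilobase in WT and 23.7% and 22.8% in the knockdown, so Sgo2a remained the larger part.

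Of these 5 calls, those of Pttg1 and Sgo1 held under all alternatives run. With library totals only, Espl1 (adjusted p = 0.111), Sgo2a (0.0939) and Meikin (0.125) were lost. Removal of WT replicate 2 also ended the calls of Espl1 (0.198), Sgo2a (0.0877) and Meikin (0.0693), that of WT replicate 1 the call of Sgo2a (0.087), and that of knockdown replicate 2 the call of Meikin (0.181). Kctd18, which overlaps Sgo2a on the opposite strand, had a log2 fold change of 0.07.

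**Figure D3:**
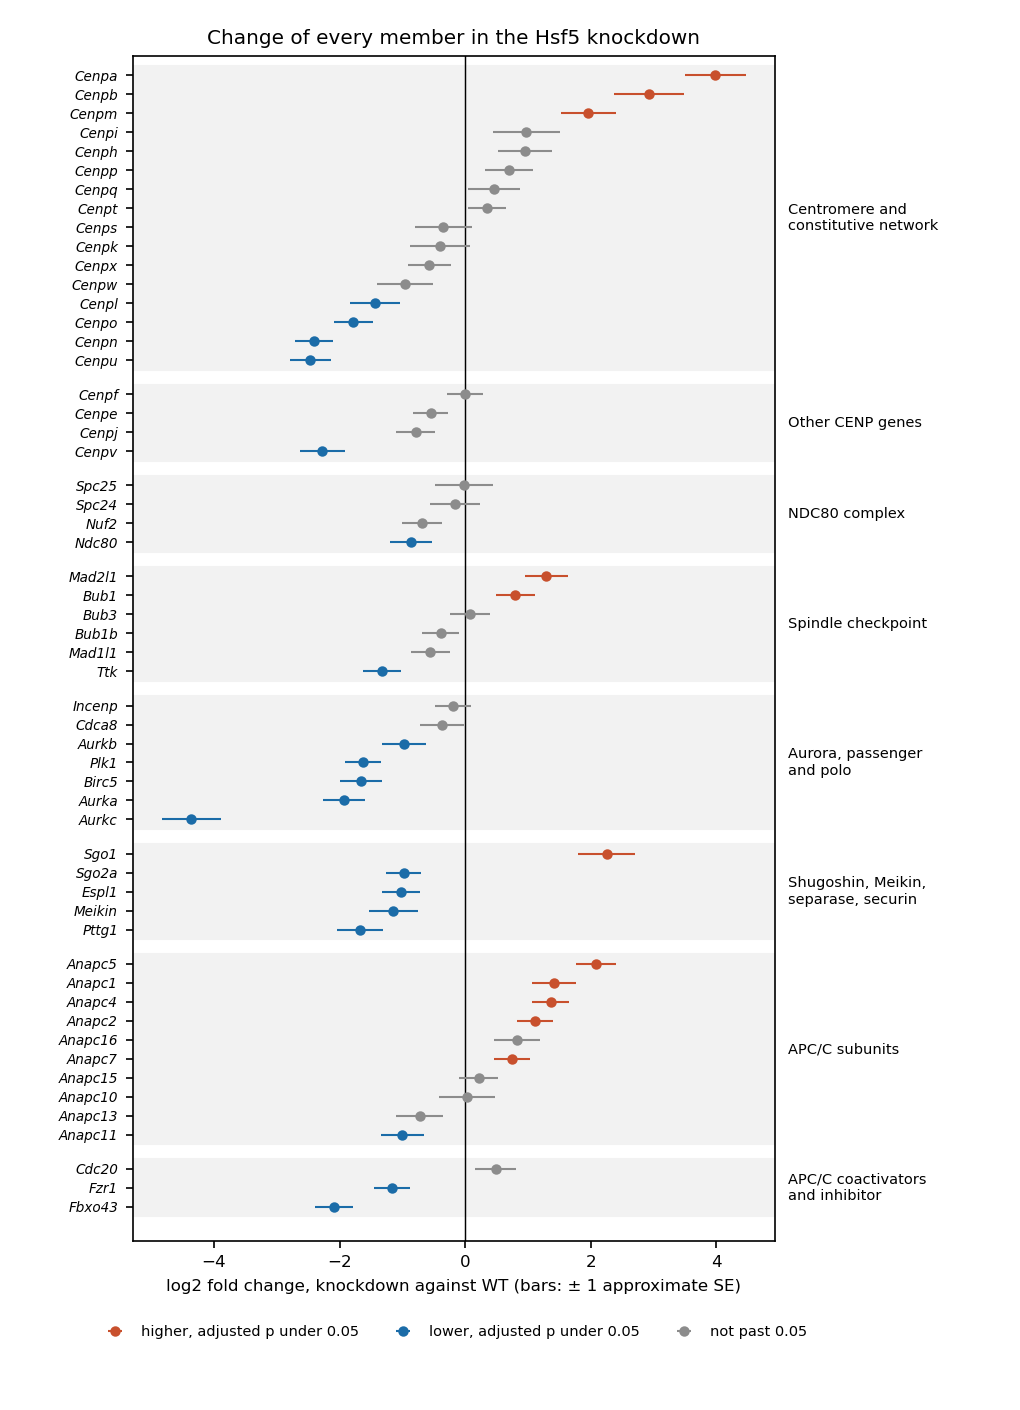
Log2 fold change of each of the 55 genes, knockdown against WT, with bars of ± 1 approximate SE, grouped by role; orange and blue mark calls at an adjusted p under 0.05. The Aurora, passenger and polo group has no value above 0 under this scaling, although Incenp and Cdca8 cross to 0.24 and 0.05 with library totals only, and Anapc5, Anapc1, Anapc4 and Anapc2 lie between 1.12 and 2.09.

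Of the 10 APC/C subunits taken by the rule, 5 rose, 1 fell and 4 did not pass. Among all genes tested 27.4% were called higher and 33.5% lower. The median log2 fold change of the 10 subunits was 0.79, against -0.12 for all genes tested. It lay between 0.61 and 0.98 when any 1 library was left out. Anapc5, a platform subunit, went from 67.5 and 91.0 CPM to 374 and 300 CPM (log2 fold change 2.09, SE 0.32; edgeR, adjusted p = 0.000545). Anapc1, the largest scaffold, went from 83.6 and 141 CPM to 255 and 346 CPM (1.42, SE 0.35; edgeR, adjusted p = 0.00638). Anapc4, of the same platform, went from 48.8 and 49.1 CPM to 145 and 107 CPM (1.36, SE 0.30; edgeR, adjusted p = 0.00345). Both knockdown libraries lay above both WT libraries in 6 of the 10 subunits, these 3 among them. In 2 subunits both lay below, and in 2, Anapc15 and Anapc10, the groups overlapped. Of all genes tested, 39% had both knockdown libraries above and 43.7% had both below. Anapc2, the cullin of the catalytic core, went from 59.9 and 66.3 CPM to 150 and 124 CPM (1.12, SE 0.29; edgeR, adjusted p = 0.00788). Anapc7, of the arm that binds coactivators, went from 41.1 and 47.0 CPM to 76.2 and 71.5 CPM (0.75, SE 0.29; edgeR, adjusted p = 0.049). Anapc11, the RING subunit that works with Anapc2, went the other way, from 147 and 126 CPM to 88.1 and 48.5 CPM (-0.999, SE 0.34; edgeR, adjusted p = 0.0302). The catalytic pair therefore passed in opposite directions, and their ratio per kilobase, Anapc2 over Anapc11, was 0.439 and 0.565 in WT and 1.83 and 2.74 in the knockdown.

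The remaining subunits did not pass: Anapc16 (27.5 and 27.9 CPM against 62.3 and 35.9 CPM), Anapc13 (51.8 and 44.4 CPM against 37.8 and 20.5 CPM), Anapc15 (51.6 and 48.2 CPM against 67.2 and 48.8 CPM) and Anapc10 (23.0 and 16.2 CPM against 27.4 and 12.8 CPM). Of them Anapc16 passed as higher with library totals only (edgeR, adjusted p = 0.0121) and without knockdown replicate 2 (0.0246), and Anapc13 as lower without knockdown replicate 1 (0.0465). The rises of Anapc4 and Anapc5 held under all alternatives. Removal of WT replicate 1 ended the calls of Anapc1 and Anapc2 (edgeR, adjusted p = 0.109 for each), and removal of WT replicate 2 that of Anapc2 (0.052). The call of Anapc7 ended on removal of any of the 4 libraries (0.0802 to 0.324), with DESeq2 size factors (0.0613), in the DESeq2 Wald test (0.0681), with synaptonemal and cohesin scaling (0.0769), without the low-count filter (0.0779) and under the filter of 1 CPM on average (0.0601). It held with library totals (0.00626). That of Anapc11 ended on removal of WT replicate 1 (0.126), WT replicate 2 (0.0571) or knockdown replicate 2 (0.108), and with totals as the scaling (0.14). In all, 2 of the 10 subunits were called higher when WT replicate 1 was removed, and 3 when WT replicate 2 was. Spermatogonial and somatic cell markers were higher in the same libraries, as given above.

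The promoter of Anapc5 is shown as that of the subunit with the largest rise. On the minus strand at chr5:122821293-122821592 it has a pair of CCAAT boxes read from the opposite strand and none of the other motifs, and the windows of Anapc1, Anapc2 and Anapc4 had no match to any of them. The window of Anapc7 had TTTGAA and 2 matches to GAANNTTC.
Anapc5: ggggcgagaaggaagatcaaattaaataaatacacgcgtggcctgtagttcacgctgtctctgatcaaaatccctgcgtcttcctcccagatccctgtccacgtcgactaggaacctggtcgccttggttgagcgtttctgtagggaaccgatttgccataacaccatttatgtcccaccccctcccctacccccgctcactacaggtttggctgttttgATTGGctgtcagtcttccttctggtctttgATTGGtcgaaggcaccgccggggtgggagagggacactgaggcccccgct

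Of the coactivators and the inhibitor of the complex, Fbxo43 and Fzr1 fell and Cdc20 did not pass. Fbxo43, the meiotic inhibitor also called EMI2, went from 123 and 106 CPM to 29.0 and 24.7 CPM (log2 fold change -2.09, SE 0.30; edgeR, adjusted p = 0.000395). Fzr1, the coactivator also called CDH1, went from 191 and 191 CPM to 95.5 and 74.8 CPM (-1.17, SE 0.29; edgeR, adjusted p = 0.00665). Cdc20, the coactivator of anaphase onset and the target of the checkpoint, stood at 275 and 260 CPM in WT and 458 and 291 CPM in the knockdown and did not pass (0.49, SE 0.32; edgeR, adjusted p = 0.218). It passed as higher with library totals only (0.91, adjusted p = 0.0238) and on removal of knockdown replicate 2 (0.78, 0.025). Per kilobase, Cdc20 over Fzr1 was 2.45 and 2.32 in WT and 8.18 and 6.64 in the knockdown. Mfsd12, which overlaps Fzr1 on the opposite strand, fell as well (log2 fold change -1.98, adjusted p = 0.000717).

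Genes of the same machinery that the naming rule does not take gave 4 higher, 4 lower and 21 not past the test among 29 tested, with a median log2 fold change of 0.04. Their shares, 13.8% higher and 13.8% lower, were below the 27.4% and 33.5% of all genes tested. With library totals only the higher ones numbered 10. Haspin, the histone H3 kinase that brings the passenger complex to centromeres, fell from 758 and 746 CPM to 15.0 and 15.6 CPM (-5.62, SE 0.35; edgeR, adjusted p = 6.91e-06), further than any of the 55 genes. Itgb3bp, which encodes CENP-R, and the spindle-coupling gene Ska1 fell too, with log2 fold changes of -2.47 and -1.77. Among further APC/C subunits, Cdc16 rose from 19.2 and 17.4 CPM to 74.5 and 57.5 CPM (1.85, SE 0.33; edgeR, adjusted p = 0.00119), whereas Cdc27 fell from 191 and 176 CPM to 76.04 and 84.3 CPM (-1.20, SE 0.28; edgeR, adjusted p = 0.00501). Cdc23 (0.54) and Cdc26 (-0.14) did not pass. The rises included Zwint (1.49), of the outer kinetochore, Trip13 (1.39), which remodels Mad2l1, and Fbxo5 (1.75), the somatic relative of Fbxo43. Fbxo43 over Fbxo5 per kilobase was 29.5 and 20.9 in WT and 1.72 and 1.76 in the knockdown.

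Replication and proliferation markers were read beside these genes, since dividing spermatogonia express both. Of 20, 11 were higher and 1 lower, beside 27.4% of all genes tested called higher and 33.5% lower. The summed level of the 20 markers was 1137 and 1160 CPM in WT and 1998 and 1649 CPM in the knockdown. Mcm2, a subunit of the replicative helicase, went from 3.48 and 6.01 CPM to 75.5 and 80.5 CPM. Ccna2, the somatic cyclin A, rose from 6.37 and 3.33 CPM to 42.3 and 33.5 CPM. Foxm1, a transcription factor of late cell cycle genes, was the marker that fell, from 166 and 187 CPM to 55.4 and 76.4 CPM. Their part in the changes of the kinetochore and APC/C genes was not tested.

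In order of level per kilobase, Cenpv led in WT at 555 and 454 CPM per kilobase, with Pttg1, Cdc20 and Aurka next. In the knockdown Cdc20 led at 256 and 162 CPM per kilobase, with Anapc5 and Cenpv next. Aurkc went from place 18 of 55 to place 55, and Anapc5 from place 22 to place 2. Cenpa stood at place 54 in WT and 30 in the knockdown. At the bottom in WT was Sgo1, at 0.706 and 0.785 CPM per kilobase. These places rest on the length of 1 annotated transcript per gene, and neighbours in the order often differed by less than their replicates did.

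**Figure D4:**
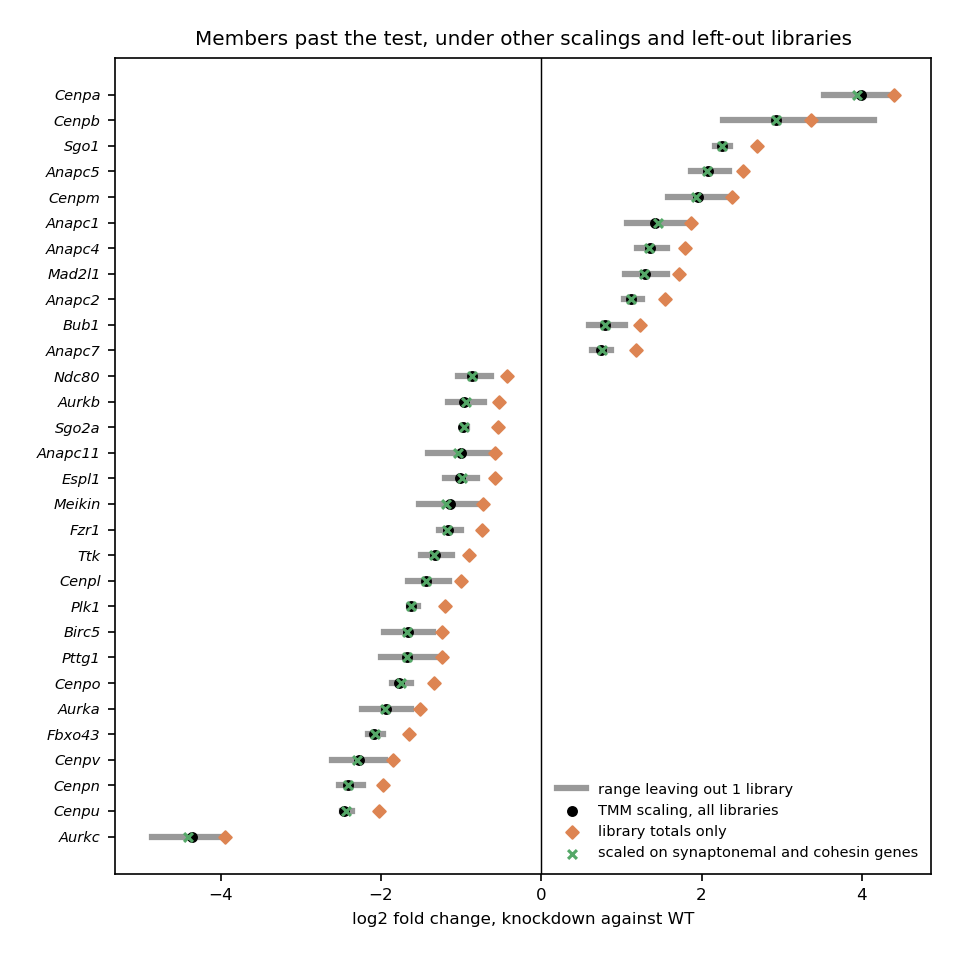
Log2 fold change of the 30 called genes with all libraries (black) and with library totals only (orange diamonds). Green crosses are the scaling on synaptonemal complex, cohesin and related genes. Grey bars are the range when any 1 library is left out. Library totals move every gene up together, and the calls nearest 0, such as Ndc80 and Aurkb, sit at -0.43 and -0.53 under that scaling.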

How the data were processed

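The authors deposited 1 table of raw read counts per gene symbol, with a column for each library. The submitters' processing notes name the build mm39 and the tools featureCounts 1.5.3, HISAT2 2.2.1, DESeq2 1.46.0 and Trim Galore 0.6.10. Not given in the sources used here are the annotation, the strand setting and the handling of reads that match several places or overlapping genes. Exons of 15 of the 55 genes overlap another gene in GENCODE M21, so their counts are less certain. Columns were matched to libraries by name, and groups and replicate numbers came from the sample titles.

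Counts were tested on the whole table in R 4.3.3 with edgeR 4.0.16 (filterByExpr, TMM, quasi-likelihood F test, Benjamini-Hochberg at 0.05 over 23594 genes), with 2 libraries per group. The SE is the log2 fold change divided by the root of its F statistic. Alternative scalings were DESeq2 size factors, library totals only and a list of 20 genes of meiotic chromosomes. That list, called synaptonemal and cohesin scaling here, also holds Hormad1, Hormad2, Terb1, Terb2, Majin, Meiob and Spata22. In the main fit 8 of the 20 were called higher and 2 lower, with a median log2 fold change of 0.79. Alternative filters were no low-count filter and 1 CPM on average. Other runs were the Wald test of DESeq2 1.42.0, glmTreat against 1.5-fold, a replicate block and leaving out each library. Levels per kilobase use the APPRIS principal transcript of GENCODE M21, which is built on GRCm38 and not on mm39. Promoters are RefSeq windows matched by symbol. The members, gene lists and naming rule were chosen with earlier results of these data known. All members were named, with values in every library for up to 5 called members per role and direction and for Aurkc, Fbxo43, Meikin and Sgo2a. Others were named after their values were seen. Replicates differed by more than counting noise, with a chi-square of 57.0 per degree of freedom between WT libraries and 123 between knockdown libraries.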

Additional observations from a re-analysis of the deposited data

How the results depend on the processing

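Of the 660 recomputed member values, 551 kept their direction and their side of the threshold, 54 lost a call, 26 gained one and 29 changed sign, all 29 in members that had not passed. With library totals only, the members higher in the knockdown numbered 17 and the wider pathway genes 10. The signs that changed there were Incenp (0.24), Cenpk (0.029), Spc24 (0.26), Cenps (0.066), Cdca8 (0.053), Bub1b (0.040), Spc25 (0.41) and Cenpf (0.44). Anapc10 was at -0.0309 with DESeq2 size factors, -0.031 in the DESeq2 Wald test and -0.0255 under the filter of 1 CPM on average. Scaling on genes of the synaptonemal complex, of cohesin and related genes put Anapc10 at -0.0113 and Cenpf at 0.0355. Without the low-count filter Spc25 was at 0.031 and Cenpf at 0.030. The cause was not tested in these cases.

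The titles give both groups replicates 1 and 2 but do not say that a number marks a shared animal or day. The difference between replicates 1 and 2 correlated across genes between WT and the knockdown (r = 0.32). With a replicate block 15 members were higher and 24 lower, the added calls being Cenph (adjusted p = 0.0179), Cenpi (0.046), Cenpp (0.0239) and Anapc16 (0.0229) as higher and Cenpw (0.00341), Cenpe (0.0478), Cenpj (0.0136), Nuf2 (0.0128) and Anapc13 (0.0185) as lower. In the same fit the wider pathway genes higher numbered 7, and Anapc10 was at -0.0422 and Spc25 at 0.0254.

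Leaving out each library gave 7 to 13 members higher and 14 to 20 lower, 3 to 6 wider pathway genes higher and 3 to 5 lower. Among members whose sign changed, the ranges were -0.12 to 0.93 for Cenpq, -0.80 to 0.20 for Cenpk, -0.50 to 0.16 for Spc24, -0.54 to 0.49 for Anapc10, -0.21 to 0.37 for Bub3, -0.99 to 0.14 for Cenps, -0.79 to 0.0113 for Cdca8, -0.44 to 0.63 for Spc25 and -0.14 to 0.19 for Cenpf. In these fits the lone library of a group is taken to vary like the other group. At this depth and spread the SE of a member reached 0.56 on the log2 scale (Cenpb).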
